A study of Danio rerio with 24 samples.

Results

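The response of the larval zebrafish jaw 12 h after the start of a short dioxin exposure was measured on 6 arrays out of the 24 in the study. The 6 were chosen by their sample titles, and they are the 3 TCDD and the 3 vehicle arrays of the last time point. TCDD (2,3,7,8-tetrachlorodibenzo-p-dioxin) is a persistent dioxin. Larvae of the AB strain, at 96 h post fertilization (hpf), spent 1 h in water with TCDD at 1 ng/ml, and the controls spent 1 h in 0.1% dimethyl sulfoxide. Both groups were then rinsed and raised in fish water until 108 hpf, so that 11 h passed between the end of the exposure and the dissection. No group carried a mutation or a transgene. Each array holds RNA from 10 pooled jaws, that is, heads cut off in front of the pectoral fin without their eyes and brains. The study ran 3 separate time courses with further TCDD and vehicle groups at 1, 2 and 4 h, and those 18 arrays enter here through the shared estimate of the spread and the comparison between times. Each p-value therefore rests on the spread between pools of jaws, not between single larvae. In this bulk tissue fewer cells of a type and less RNA per cell cannot be told apart.

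TCDD acts through the aryl hydrocarbon receptor (AHR), a ligand-activated transcription factor that waits in the cytoplasm with the chaperone Hsp90. After binding a ligand it enters the nucleus, pairs with Arnt and switches on genes of xenobiotic metabolism, among them the cytochrome P450 genes of the cyp1 family. In zebrafish larvae ahr2 is the receptor that mediates most effects of TCDD, and malformation of the cartilaginous jaw is one of the best known of these. Sox9 transcription factors are required for cartilage formation, and the zebrafish has the co-orthologues sox9a and sox9b. The title of the series names lower sox9b and a malformed jaw after AHR activation, so the question at 12 h is what differed in the jaw besides the direct targets of the receptor.

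The values are deposited intensities, given here as log2. After 115 array controls were left out, 15502 probe sets were tested, of which 10795 carry 1 gene symbol, for 8793 genes. Cartilage was present in the tissue: the probe set for col2a1a, the main cartilage collagen, lay between 12.55 and 12.74 on the TCDD arrays and between 12.28 and 12.96 on the vehicle arrays, and matn1, a cartilage matrix protein, lay between 11.58 and 12.22 and between 11.54 and 12.46. Neuronal signal was present too, with a probe set of sncb between 9.38 and 10.05 with TCDD and between 8.98 and 9.88 with vehicle. How fully the brains had been removed was not tested. Replicates of a group differed by a median of 0.125 to 0.244 between TCDD arrays and 0.0696 to 0.111 between vehicle arrays, on the log2 scale. Vehicle replicate 2 stood apart in photoreceptor genes, and TCDD replicate 3 in control and other probe sets. On the array of TCDD replicate 3, the spike-in control dap read only 0.51 lower at its 5′ end than at its 3′ end, against 2.83 to 3.84 lower on the 5 other arrays (the log2 differences are -0.51, -2.83 and -3.84). At 1, 2 and 4 h this difference lay between -1.35 and 0.16 on all arrays but TCDD replicate 2 of 1 h (-2.92). By this control TCDD replicate 3 of 12 h read like most earlier arrays, and the 5 others of 12 h lay lower. TCDD replicate 3 had 65 probe sets more than 4-fold above both other TCDD arrays of 12 h and 8 more than 4-fold below, against 1 and 1 for replicate 1 and 2 and 1 for replicate 2. Results that rest on TCDD replicate 3 are given with and without it.

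TCDD raised 60 probe sets at 12 h and lowered 57 (limma, Benjamini-Hochberg adjusted p under 0.05 over all 15502). The 117 calls are 0.755% of the probe sets tested, 0.387% higher and 0.368% lower. Every count of calls on a gene list below stands beside these shares. The rises belong to 48 named genes and the falls to 43, and the remaining called probe sets have several symbols or none. Rises reached further than falls: 33 rises and 29 falls were at least 2-fold, but 11 rises and 1 fall were at least 4-fold. The median change was 1.02 among the rises and -1.04 among the falls, against -0.03 over all probe sets. In each of the 117 the 3 TCDD arrays lay wholly on one side of the 3 vehicle arrays, which held for 10.1% of all probe sets, 4.84% with TCDD above and 5.27% with TCDD below. The calls were chosen by their p-values on these same arrays, so this separation adds no separate support. When single arrays were left out, 40 calls (25 rises and 15 falls) passed in all 6 fits. These fits kept the 18 earlier arrays in the estimate of the spread. With the 6 arrays of 12 h alone 19 probe sets passed, 17 higher and 2 lower. Without TCDD replicate 3, 66 probe sets passed, 51 of them among the 117. Leaving out vehicle replicate 1 gave 62 and leaving out vehicle replicate 2 gave 71. The sign of a call could not change in such fits, because its groups did not overlap.

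**Figure D1:**
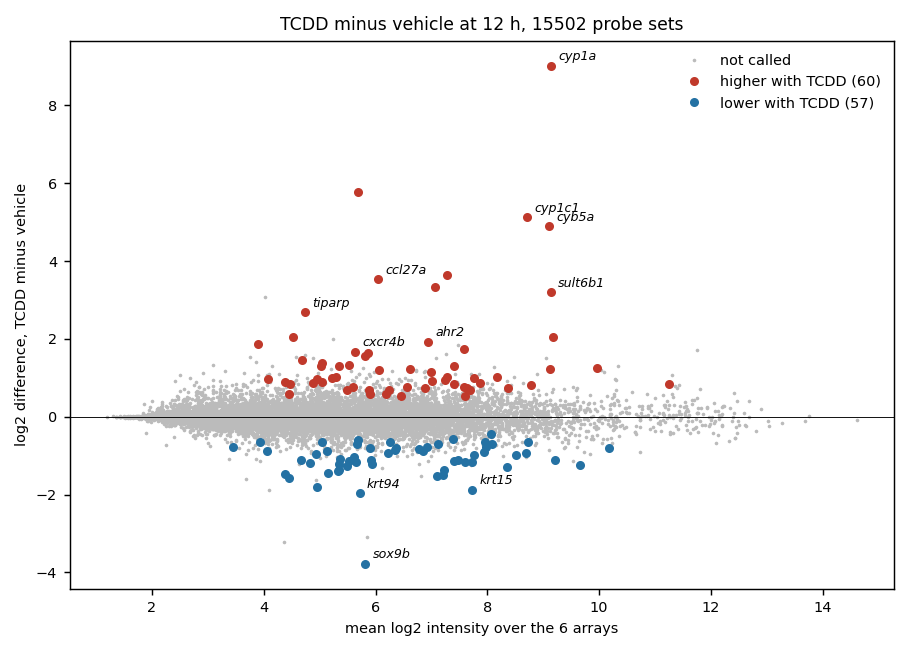
Log2 difference between TCDD and vehicle jaws at 12 h (vertical axis) against the mean log2 intensity over the 6 arrays (horizontal axis) for the 15502 probe sets, each a point, with 60 higher and 57 lower calls in colour and selected genes named. The cyp1a point lies at 9.02 and the sox9b point at -3.77. The unlabelled red point between cyp1a and cyp1c1 in height is a probe set annotated as mpx.

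The strongest rises were in the AHR gene battery. cyp1a, the P450 gene used as the standard read-out of AHR activity, read 13.66, 13.83 and 13.48 on the TCDD arrays and 5.42, 4.21 and 4.26 on the vehicle arrays. All TCDD jaws were near the top of the array's range and all vehicle jaws far below. The difference was 9.02 (SE 0.30, 519-fold, limma adjusted p = 8.03e-13). cyp1c1, another P450 of the same family, read 11.46, 11.69 and 10.67 with TCDD and 6.48, 6.35 and 5.61 with vehicle, a difference of 5.13 (SE 0.29, limma adjusted p = 1.5e-09). The groups did not overlap on this probe set. The 2 further cyp1c1 probe sets were not called: one read 4.98, 3.01 and 8.69 with TCDD against 2.46 to 2.5 with vehicle (limma adjusted p = 0.551), highest on TCDD replicate 3, and the other differed by 0.48 (limma adjusted p = 0.736).

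cyb5a encodes cytochrome b5, an electron donor to P450 enzymes, and was no member of the AHR target list. It read 11.89, 11.70 and 11.05 with TCDD and 6.65, 6.89 and 6.43 with vehicle, a difference of 4.89 (SE 0.22, limma adjusted p = 6.94e-11). The lowest TCDD array lay more than 4 log2 units above the highest vehicle array. sult6b1, a cytosolic sulfotransferase gene, read 10.91, 10.56 and 10.75 with TCDD and 7.89, 7.56 and 7.18 with vehicle, and rose by 3.2 (SE 0.17, limma adjusted p = 7.16e-10). tiparp encodes an ADP-ribosyltransferase that represses the AHR. Its signal was 5.91, 5.84 and 6.51 with TCDD and 3.45, 3.31 and 3.43 with vehicle, near the background of the array, and the difference was 2.69 (SE 0.40, limma adjusted p = 0.00157). The tiparp call was lost with an offset of 16 added to the intensities (limma adjusted p = 0.0576).

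The receptor gene ahr2 itself was higher with TCDD. It read 8.05, 8.07 and 7.58 on the TCDD arrays and 5.83, 6.16 and 5.93 on the vehicle arrays, with no overlap, a difference of 1.93 (SE 0.25, 3.81-fold, limma adjusted p = 0.000376). The other receptor measured, ahr1a, lay between 2.15 and 2.31 with TCDD and between 2.19 and 2.27 with vehicle, under the brightest of 3 probe sets for reporter proteins that fish do not make (2.75), so that no level can be read for it. The Hsp90 gene hsp90ab1, at 11.87 to 12.45 with TCDD and 11.93 to 12.37 with vehicle, and the partner arnt2, whose 2 probe sets lay near the background, were not called. Of the 8 probe sets for receptors and partners 1 was called.

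Of the 9 probe sets matched to the list of AHR targets, 5 rose (cyp1a, cyp1c1, sult6b1, tiparp and gstp1.2), against 0.387% of all probe sets. None fell, and the list median was 2.69. The list was chosen with earlier results of these data known, so its count of calls adds no separate support. Without TCDD replicate 3 the same 5 passed and the median was 1.51. gstp1.2, a glutathione S-transferase of the pi class, read 11.43, 11.56 and 12.01 with TCDD against 10.95, 10.94 and 10.61 with vehicle and rose by 0.83 (SE 0.15, limma adjusted p = 0.00783). Its identifier starts with the same cluster number as those of the postnb probe sets below, and its gene assignment was not tested. nqo1, a quinone reductase regulated by both the AHR and Nrf2 in mammals, read 10.93, 10.97 and 10.80 with TCDD and 10.61, 10.23 and 9.94 with vehicle. The groups did not overlap, but the difference of 0.64 (SE 0.19) did not pass (limma adjusted p = 0.169). The cyp1d1 probe set differed by -0.01 and lay near the background. No probe set was matched to cyp1b1, cyp1c2, ahrra, ahrrb, foxq1a or foxq1b.

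**Figure D2:**
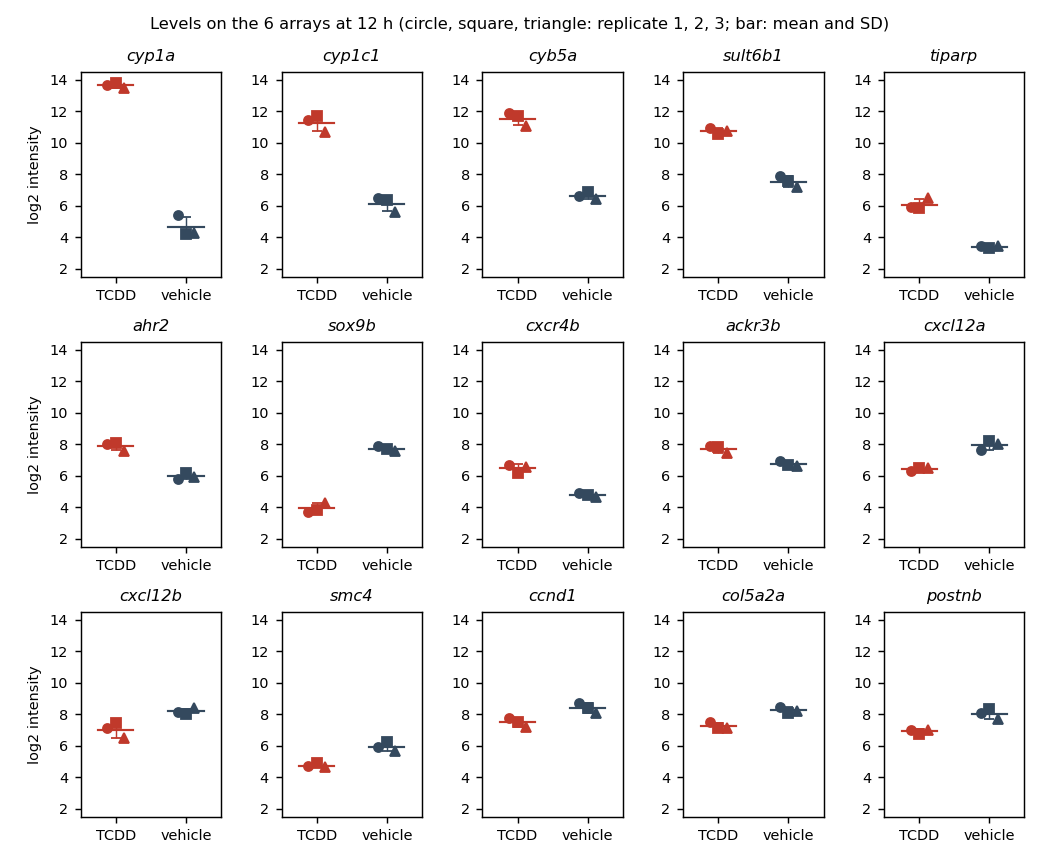
Log2 intensity (vertical axes) of 15 genes on each of the 6 arrays at 12 h, TCDD left and vehicle right, with the mean and SD of 3 arrays as bars; where a gene has several probe sets, the one of smallest p is drawn. In every panel the groups are separate, and the widest gaps are those of cyp1a, cyp1c1, cyb5a and, downward, sox9b.

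The probe set with the next largest rise after cyp1a is annotated as mpx, the myeloperoxidase gene of neutrophils. It read 7.62, 9.46 and 8.61 with TCDD and 2.81, 2.78 and 2.79 with vehicle, and differed by 5.77 (SE 0.53, limma adjusted p = 4.01e-06). The vehicle mean, 2.79, lay at the background (2.75), so the difference can only be read as a lower bound. The 3 other mpx probe sets lay between 2.46 and 3.12 with TCDD and between 2.54 and 3.11 with vehicle and were not called. The array identifier of the responding probe set starts with the same cluster number as that of the cyp1a probe set, and its value is given here as that of a probe set, not as a level of mpx.

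Of the 22 probe sets for oxidative stress genes 2 rose, against 0.387% of all probe sets, and both belong to glutathione genes. gclm, the modifier subunit of the enzyme that makes the glutathione precursor, read 4.88, 4.99 and 4.80 with TCDD and 3.97, 4.05 and 4.12 with vehicle, and rose by 0.85 (SE 0.14, limma adjusted p = 0.00416). The other was gstp1.2, which is also on the AHR target list, and none fell. txnb, a thioredoxin gene, read 7.36, 7.69 and 8.64 with TCDD and 7.07, 7.02 and 6.94 with vehicle, without overlap and highest on TCDD replicate 3, but its difference of 0.88 did not pass (limma adjusted p = 0.178). The 3 probe sets of the peroxiredoxin gene prdx1 differed by 0.41, 0.19 and 0.64 and were not called; the groups were separate on the last of these. The catalytic subunit gclc differed by -0.10, glutathione reductase (gsr) by 0.63 (limma adjusted p = 0.164), and sod1, sod2 and cat by 0.19, -0.19 and 0.22, none of them called. The list median was 0.20 with 16 of 22 positive, against 35.8% of all probe sets. Without TCDD replicate 3 it was 0.04 with 13 positive, against 48.4% of all. The part of that array in the list's median was not tested further.

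Among the other rises of largest size were ccl27a and ccl44, which encode chemokines, and jac1. ccl27a read 7.67, 8.12 and 7.64 with TCDD and 4.36, 4.14 and 4.34 with vehicle, and rose by 3.53 (SE 0.42, limma adjusted p = 0.000149). The groups lay more than 3 log2 units apart. jac1 rose by 3.32 (SE 0.51, limma adjusted p = 0.00225), with 8.58 to 8.86 in TCDD jaws and 5.30 to 5.58 in vehicle jaws. ccl44 read 6.30, 5.76 and 6.51 against 4.89, 4.85 and 4.87 and rose by 1.32 (SE 0.27, limma adjusted p = 0.0226), but the call was lost without any single array other than TCDD replicate 2 (limma adjusted p between 0.0699 and 0.123).

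cxcr4b and the genes of its ligand moved in opposite directions. cxcr4b, a receptor for the chemokine Cxcl12, read 6.66, 6.17 and 6.57 with TCDD and 4.93, 4.79 and 4.68 with vehicle, and rose by 1.67 (SE 0.16, limma adjusted p = 9.85e-06). cxcl12a, one of its ligand genes, read 6.33, 6.51 and 6.51 with TCDD and 7.64, 8.22 and 8.02 with vehicle, and changed by -1.51 (SE 0.17, limma adjusted p = 9.78e-05). The groups did not overlap for either gene. A further cxcl12a probe set changed by -1.09 (SE 0.23, limma adjusted p = 0.0282), without a pass when TCDD replicate 3 or any vehicle array was left out (limma adjusted p between 0.0584 and 0.151). The paralogue cxcl12b read 7.16, 7.46 and 6.47 with TCDD and 8.15, 8.02 and 8.38 with vehicle, and changed by -1.16 (SE 0.23, limma adjusted p = 0.022). ackr3b, a scavenger receptor that removes Cxcl12, read 7.89, 7.82 and 7.42 with TCDD and 6.95, 6.71 and 6.65 with vehicle, and rose by 0.94 (SE 0.20, limma adjusted p = 0.0291). cxcl12b and ackr3b were picked out after their values were seen. The cxcl12b call was lost without TCDD replicate 3 (limma adjusted p = 0.122) and without vehicle replicate 1 or 3 (0.0756 and 0.1), and the ackr3b call without any single array except TCDD replicate 3 (0.0574 to 0.122).

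The other rises named by size were nt5c2l1, hsp90aa1.2, esm1 and si:dkey-247k7.2. nt5c2l1, a 5′-nucleotidase gene on the erythrocyte list, read 4.42, 4.89 and 5.16 with TCDD and 3.11, 2.76 and 3.03 with vehicle, near the background, and rose by 1.86 (SE 0.26, limma adjusted p = 0.00099). hsp90aa1.2, a gene for the chaperone Hsp90, read 6.45, 6.40 and 6.91 with TCDD and 4.85, 5.62 and 4.64 with vehicle, and rose by 1.55 (SE 0.29, limma adjusted p = 0.012), though not without TCDD replicate 3 (0.0744), vehicle replicate 1 (0.0696) or vehicle replicate 3 (0.0692). A further hsp90aa1.2 probe set read 2.60, 2.71 and 5.40 with TCDD and 2.71, 2.58 and 2.59 with vehicle, above the background on TCDD replicate 3 alone, and was not called (0.95, limma adjusted p = 0.931). esm1, which encodes the proteoglycan endocan, read 5.08, 5.82 and 5.32 with TCDD and 4.14, 3.64 and 4.08 with vehicle, a rise of 1.45 (SE 0.23, limma adjusted p = 0.00334). The esm1 call passed in all 6 fits that leave out an array. si:dkey-247k7.2 rose by 2.04 (SE 0.46, limma adjusted p = 0.0427), with 9.53, 10.10 and 10.96 in TCDD jaws and 8.08, 8.42 and 7.96 in vehicle jaws. It was highest on TCDD replicate 3 and no longer passed without it (limma adjusted p = 0.217), without TCDD replicate 2 (0.0828) or without any vehicle array (0.0898 to 0.145).

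Several smaller rises that passed in all 6 leave-one-out fits were picked out after their values were seen. gmds, which encodes an enzyme of GDP-fucose synthesis, rose by 1.31 (SE 0.23, limma adjusted p = 0.00713), with 5.34 to 6.24 in TCDD jaws and 4.25 to 4.50 in vehicle jaws. nansa, a sialic acid synthase gene, rose by 1.23 (SE 0.19, limma adjusted p = 0.00225), with 6.89 to 7.54 against 5.70 to 6.21. stc2a, a stanniocalcin gene, rose by 1.31 (SE 0.20, limma adjusted p = 0.00225), with 7.66 to 8.44 against 6.53 to 6.94. None of these ranges overlapped between the groups. sem1 rose by 0.82 (limma adjusted p = 0.00415), and its product is a small subunit of the proteasome lid; a further sem1 probe set differed by 0.30 and did not pass. The proteasome subunit genes psmd8 (0.74, limma adjusted p = 0.0456) and psmd4b (0.52, limma adjusted p = 0.0433) rose too, but psmd8 passed in only 1 of the 6 leave-one-out fits, without TCDD replicate 2, and psmd4b in none (limma adjusted p up to 0.255 and 0.221).

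The largest fall was that of sox9b. Its signal was 3.68, 3.82 and 4.30 on the TCDD arrays and 7.86, 7.70 and 7.55 on the vehicle arrays. TCDD jaws were thus little above the background of the array, while vehicle jaws were clearly above it. The difference was -3.77 (SE 0.20, 13.7-fold in size, limma adjusted p = 7.16e-10). It was the 1 fall that passed in all 16 refits with other settings, and its adjusted p reached at most 0.0137 there. A further sox9b probe set lay between 2.14 and 2.24 on all 6 arrays, at the background, and differed by -0.01. The sox9a probe set also lay at the background (2.05 to 2.17 with TCDD and 2.06 to 2.13 with vehicle), so these arrays give no reading of the paralogue.

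sox9b was the only call among the 22 probe sets of chondrogenic transcription factors, whose median was -0.02. sox4a read 9.16, 9.12 and 9.33 with TCDD and 8.60, 8.75 and 8.57 with vehicle, without overlap, but its difference of 0.56 did not pass (limma adjusted p = 0.0681). The runx2a and runx2b probe sets with signal above background, for factors of osteoblast and hypertrophic chondrocyte differentiation, differed by 0.26 and -0.34, within the spread of the arrays. The remaining runx2a and runx2b probe sets lay under 2 on all arrays.

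The median of the cartilage matrix list lay near that of all probe sets. Of 24 probe sets 1 rose and 1 fell, against 0.387% and 0.368% of all probe sets, and the median was -0.06 with 7 positive. In 4 of the 24 all TCDD arrays lay below all vehicle arrays, and in 2 they lay above, against 5.27% and 4.84% of all probe sets. Without TCDD replicate 3 the median was 0.01 with 13 positive, against 48.4% of all probe sets. The collagen gene col2a1a averaged 12.67 ± 0.10 in TCDD jaws and 12.68 ± 0.35 in vehicle jaws (SD, n = 3 each), a difference of -0.01 (SE 0.18). col9a2, col9a3, col11a1a and matn1, for other cartilage matrix proteins, differed by -0.01, -0.06, -0.11 and -0.08 and were not called. Also bright and not called were matn4 (0.34) and both cnmd probe sets (0.81 and 0.49). One cnmd probe set read 12.58, 12.06 and 10.85 with TCDD and 11.75, 10.72 and 10.59 with vehicle. The rise was ccn2a, which encodes connective tissue growth factor. It read 9.48, 9.90 and 9.79 with TCDD and 8.57, 8.44 and 8.49 with vehicle, a change of 1.22 (SE 0.18, limma adjusted p = 0.0019). The fall was col10a1a, a collagen gene of hypertrophic cartilage in mammals and of bone-forming cells in zebrafish. It averaged 9.78 ± 0.37 in TCDD jaws and 10.59 ± 0.38 in vehicle jaws (SD, n = 3 each), and the groups did not overlap. The change of -0.81 (SE 0.18, limma adjusted p = 0.041) no longer passed without TCDD replicate 2 (0.139), TCDD replicate 3 (0.179), vehicle replicate 1 (0.245) or vehicle replicate 2 (0.0986). The cartilage link protein gene hapln1a had 6 probe sets, all with negative differences (-1.32 to -0.09), and none passed.

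On the bone and osteoblast list 2 of 17 probe sets fell, against 0.368% of all probe sets, and none rose, with a median of -0.02. In 4 of the 17 all TCDD arrays lay below all vehicle arrays, and in 1 they lay above, against 5.27% and 4.84% of all probe sets. col5a2a, a chain of the fibrillar collagen V, read 7.50, 7.13 and 7.16 with TCDD and 8.47, 8.07 and 8.20 with vehicle, and changed by -0.99 (SE 0.15, limma adjusted p = 0.00251). postnb, a periostin gene of connective tissue and periosteum, read 6.99, 6.74 and 7.02 with TCDD and 8.09, 8.34 and 7.67 with vehicle, and changed by -1.12 (SE 0.19, limma adjusted p = 0.00611). Both passed in all 6 leave-one-out fits, which kept the earlier arrays, but neither passed with the 6 arrays of 12 h alone. A further postnb probe set changed by -0.58 and did not pass (limma adjusted p = 0.145), and a further col5a2a probe set, near the background, differed by -0.13. The identifiers of both postnb probe sets start with the same cluster number as that of gstp1.2, which rose. Their gene assignment was not tested. One of the col1a2 probe sets, for a chain of the main bone collagen, read 10.14, 9.92 and 9.62 against 10.66, 10.73 and 10.27 and missed the threshold (-0.67, limma adjusted p = 0.0524).

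Keratins accounted for the next falls in size. krt94 read 4.58, 4.19 and 5.45 with TCDD and 6.89, 6.44 and 6.76 with vehicle, a change of -1.96 (SE 0.28, limma adjusted p = 0.00132). krt15 read 6.61, 5.90 and 7.89 with TCDD and 9.03, 8.37 and 8.61 with vehicle, a change of -1.87 (SE 0.39, limma adjusted p = 0.029). In both, TCDD replicate 3 lay nearest to the vehicle arrays, and without it the adjusted p fell to 0.000154 for krt94 and 0.00156 for krt15. The krt15 call was lost without any of the 5 other arrays (limma adjusted p between 0.0577 and 0.142). These were the 2 calls among 45 probe sets for epidermis and mucosa (0.755% of all probe sets were called), whose median was -0.05. krt4, the bright keratin of the surface layer, read 12.08, 11.88 and 12.49 against 12.66, 12.93 and 12.53 and did not pass (-0.56, limma adjusted p = 0.0636).

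The other large falls were in genes of various functions. f13a1b, a coagulation factor XIII gene whose product cross-links extracellular proteins, read 3.99, 4.24 and 3.92 with TCDD and 6.20, 5.90 and 5.43 with vehicle on one probe set, a change of -1.80 (SE 0.29, limma adjusted p = 0.00387). On a further f13a1b probe set it read 7.07, 7.19 and 7.15 against 8.20, 8.18 and 8.55 and changed by -1.17 (limma adjusted p = 0.041), a call lost without any single array (0.0809 to 0.175). The last f13a1b probe set, near the background, differed by -0.02 and was not called. anxa2a, an annexin that binds membranes in the presence of calcium, read 6.42, 6.45 and 6.18 with TCDD and 8.24, 7.66 and 7.70 with vehicle, and changed by -1.51 (SE 0.15, limma adjusted p = 1.3e-05). The groups of anxa2a lay more than 1 log2 unit apart. aldoab, a glycolytic aldolase gene, read 8.17, 7.69 and 7.26 with TCDD and 9.09, 9.02 and 8.88 with vehicle, and changed by -1.29 (SE 0.21, limma adjusted p = 0.00321). The secreted glycoprotein gene myoc changed by -1.37 (SE 0.23, limma adjusted p = 0.00506), with 4.15 to 4.98 in TCDD jaws and 5.82 to 6.39 in vehicle jaws. anxa2a, aldoab, myoc and the first f13a1b probe set passed in all 6 leave-one-out fits. With the 6 arrays of 12 h alone aldoab did not pass.

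In 5 further falls among the 15 largest, single arrays decided the call. The transcription factor gene cebpa changed by -1.46 (SE 0.29, limma adjusted p = 0.0199), with 3.07 to 4.03 in TCDD jaws and 4.78 to 5.51 in vehicle jaws, and was lost without TCDD replicate 3 (0.122), vehicle replicate 2 (0.0614) or vehicle replicate 3 (0.11). limch1b changed by -1.44 (SE 0.26, limma adjusted p = 0.00952) and was lost without vehicle replicate 1 (0.0624). A further limch1b probe set changed by -1.02 and did not pass (limma adjusted p = 0.254). The matrix protein gene spon2b changed by -1.37 (SE 0.26, limma adjusted p = 0.012), with its lowest value, 5.83, on TCDD replicate 3, and was lost without that array (0.0567), vehicle replicate 1 (0.0768) or vehicle replicate 2 (0.052). bhmt, which encodes an enzyme that remethylates homocysteine, read 9.02, 9.85 and 8.26 with TCDD and between 10.19 and 10.34 with vehicle. The bhmt change of -1.24 (SE 0.26, limma adjusted p = 0.0301) was lost without any single array except TCDD replicate 2 (0.0738 to 0.133). A further bhmt probe set differed by -0.47 and was not called. foxd3, a transcription factor gene of neural crest, read 5.32, 5.02 and 4.83 with TCDD and 6.59, 6.40 and 5.70 with vehicle, and changed by -1.17 (SE 0.24, limma adjusted p = 0.0234), but not without TCDD replicate 2 (0.0643), TCDD replicate 3 (0.12), vehicle replicate 1 (0.136) or vehicle replicate 2 (0.105).

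Genes of cell division leaned downward, mostly below the threshold. smc4, a subunit of the condensin complex that compacts mitotic chromosomes, read 4.70, 4.88 and 4.65 with TCDD and 5.93, 6.23 and 5.68 with vehicle, and changed by -1.20 (SE 0.14, limma adjusted p = 0.000149). knl1, a kinetochore scaffold gene, read 4.66, 3.84 and 4.21 with TCDD and 5.57, 5.75 and 4.98 with vehicle, and changed by -1.20 (SE 0.22, limma adjusted p = 0.0101), a call lost without vehicle replicate 1 (0.0602) or 2 (0.0638). A further knl1 probe set, near the background, differed by 0.06 and was not called. Neither smc4 nor knl1 stands on the cell cycle list used here. On that list 1 of 75 probe sets rose and 2 fell, against 0.387% and 0.368% of all probe sets. Of the 75, 62 had negative differences (against 64.2% of all probe sets), and the median was -0.27, against -0.03 over all. In 18 of the 75 all TCDD arrays lay below all vehicle arrays, against 5.27% of all probe sets.

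The 2 falls on the list were both probe sets of ccnd1, cyclin D1 of the G1 phase. One read 7.75, 7.53 and 7.18 with TCDD and 8.73, 8.38 and 8.09 with vehicle (-0.91, SE 0.20, limma adjusted p = 0.0337), and the other 7.71, 7.61 and 7.46 against 8.37, 8.54 and 8.19 (-0.78, SE 0.17, limma adjusted p = 0.0351). The rise was cdkn1bb, which encodes a p27-type inhibitor of cyclin-dependent kinases, with 7.52, 7.68 and 8.29 against 6.92, 7.19 and 6.85 (0.84, SE 0.16, limma adjusted p = 0.0166). A further cdkn1bb probe set differed by -0.05 and was not called. Values below the threshold included pcna, the sliding clamp of DNA replication (-0.85, limma adjusted p = 0.0502), plk1, a mitotic kinase (-0.96, 0.268), and the cyclin-dependent kinase cdk1 (-0.69, 0.396). Without TCDD replicate 3 no probe set of the list passed, and the median was -0.19 with 60 of 75 negative, against 51.6% of all probe sets. No probe set of the list passed without vehicle replicate 1 either, and 5 falls and no rise passed without vehicle replicate 3. The median stayed between -0.36 and -0.10 in all 16 refits, and it was nearest to 0 without vehicle replicate 2 (-0.10, 59 of 75 negative). In that fit the median of all probe sets was -0.04, and 33.7% of them were positive. Some replication genes read highest on vehicle replicate 2, such as mcm5 (5.21, 6.16 and 5.24 with vehicle) and tyms (5.46, 6.19 and 5.13), but the first ccnd1 probe set did not. The part of that array in the list's median was not tested further. kifc1 (-0.93), cenpe (-0.96) and tuba1b (-0.71), a pair of kinesins and a tubulin, also fell (limma adjusted p = 0.0291, 0.0456 and 0.0255) and were picked out after their values were seen; kifc1 and tuba1b each passed in only 1 of the 6 leave-one-out fits, and cenpe in 2. A further tuba1b probe set differed by -0.41 and did not pass.

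**Figure D3:**
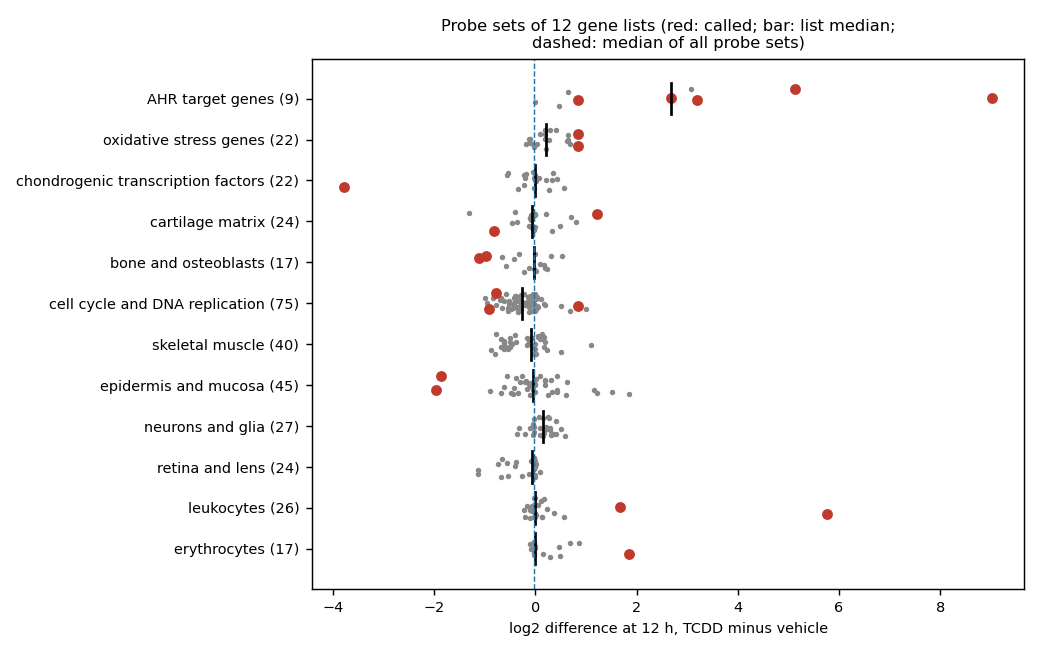
Log2 difference between TCDD and vehicle jaws at 12 h (horizontal axis) for each probe set of 12 gene lists, with called probe sets in red, a black bar at the list median and a dashed line at the median of all probe sets (-0.03). The AHR target median lies at 2.69 and that of the cell cycle list at -0.27, and the other 10 lie between -0.09 and 0.20.

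On the lists for hedgehog signalling, FGF signalling and craniofacial patterning and neural crest 4 probe sets were called. hhip, a membrane protein that binds and blocks hedgehog ligands, read 6.63, 6.04 and 6.44 with TCDD and 7.02, 7.22 and 7.32 with vehicle, and changed by -0.82 (SE 0.18, limma adjusted p = 0.032), as the 1 call of 14 hedgehog probe sets. il17rd, an inhibitor of FGF signalling, read 5.12, 5.17 and 5.61 with TCDD and 4.46, 4.55 and 4.33 with vehicle, and rose by 0.86 (SE 0.17, limma adjusted p = 0.017), as the 1 call of 26 FGF probe sets. edn1, the endothelin that patterns the ventral pharyngeal arches, read 4.80, 4.52 and 5.19 with TCDD and 4.05, 3.76 and 4.02 with vehicle, and rose by 0.89 (SE 0.20, limma adjusted p = 0.0433). With foxd3 it made 2 calls among 52 probe sets of craniofacial patterning and neural crest. These counts stand beside 0.755% of all probe sets called, and each rests on 1 or 2 genes. The calls of hhip, il17rd and edn1 were all lost without TCDD replicate 3 (limma adjusted p = 0.083 for hhip, 0.108 for il17rd and 0.225 for edn1). hhip was also lost without every other array but TCDD replicate 1 (0.0602 to 0.137), il17rd without vehicle replicate 1 (0.0645) or 3 (0.0795), and edn1 without every array but TCDD replicate 2 (0.0961 to 0.225).

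No probe set passed on the lists for Wnt signalling (41 probe sets), BMP and TGF-beta signalling (45), retinoid metabolism and receptors (24), p53 and DNA damage (25) or matrix remodelling (31). On the retinoid list aldh1a2 read 5.88, 5.28 and 4.79 with TCDD and 6.69, 6.44 and 6.58 with vehicle and missed the threshold (-1.26, limma adjusted p = 0.0522). A rarga probe set missed it too (-0.80, limma adjusted p = 0.0699). Of the 24 retinoid probe sets 16 were negative and 8 positive, near the shares of all probe sets (64.2% negative and 35.8% positive). The clock list had 1 call of 35, tefa, a PAR-family transcription factor of circadian output. It read 5.87, 6.08 and 6.03 with TCDD and 4.22, 4.68 and 5.19 with vehicle, and rose by 1.3 (SE 0.21, limma adjusted p = 0.00416). A further tefa probe set differed by 0.22 and was not called. aldoab was the 1 call of 40 probe sets for hypoxia and glycolysis, and hsp90aa1.2 the 1 call of 47 for heat shock and early response.

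Markers of other tissues bear on how alike the pooled jaws were. On the skeletal muscle list no probe set of 40 passed. On it 28 were negative, against 64.2% of all probe sets, and in 12 all TCDD arrays lay below all vehicle arrays, against 5.27% of all. The summed intensity of that list was 19109, 14021 and 21989 on the TCDD arrays and 25513, 22884 and 25669 on the vehicle arrays, so all TCDD jaws were lower. The list median was -0.09, and -0.38 without TCDD replicate 3. The array's own control for acta1, a skeletal muscle actin gene, read 12.09, 11.78 and 11.97 with TCDD and 12.47, 12.44 and 12.80 with vehicle, a difference of -0.62. The exact permutation p (two-sided) was 0.1, the lowest value possible with 3 arrays a side, and 0.2 adjusted over the 2 controls. GAPDH differed by -0.08 (exact two-sided permutation p = 0.7). Whether the amount of muscle in the dissections took part in any fall was not tested.

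Markers of neurons and glia had no call among 27 probe sets, and the median was 0.15 with all arrays and -0.07 without TCDD replicate 3. Retina and lens markers had none among 24, with summed intensities of 1031, 826 and 445 on TCDD arrays and 1049, 2011 and 1273 on vehicle arrays. Most of each sum came from the brightest probe set of the list, gnb1b, so the sums mainly follow that gene. It read 9.71, 9.28 and 7.92 with TCDD and 9.73, 10.52 and 10.06 with vehicle (-1.14, limma adjusted p = 0.357). Of the 24, 22 were negative, against 64.2% of all probe sets. Without vehicle replicate 2, 18 of the 24 were negative, and 33.7% of all probe sets were positive. Photoreceptor genes stood out on that array alone: the opsin gene opn1sw1 read 3.07 to 3.92 with TCDD and 3.08, 7.29 and 3.11 with vehicle, and a probe set of the rod transducin gene gnat1 read 3.62 to 3.71 with TCDD and 3.49, 6.02 and 3.51 with vehicle. Erythrocyte markers summed to 1880, 1818 and 3789 on the TCDD arrays and to 1511, 1919 and 1725 on the vehicle arrays, with the highest value on TCDD replicate 3, and nt5c2l1 was the 1 call of 17. On the leukocyte list the calls were cxcr4b and the probe set annotated as mpx, 2 of 26. The summed intensity of the list was 734, 1256 and 991 with TCDD and 481, 479 and 521 with vehicle, both calls included, and the list median was -0.01. The gap in this sum came from the 2 called probe sets, of which the one annotated as mpx is not read as that gene. The markers of heart, endothelium and ionocytes had no call. Heart genes differed between replicates of both groups: myl7 read 2.85, 2.99 and 7.60 with TCDD and 5.56, 2.89 and 6.78 with vehicle. The summed intensity of the heart list was 91, 88 and 437 with TCDD and 162, 105 and 322 with vehicle. The part of these tissues in the calls was not tested.

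Each time had its own vehicle arrays, so effects can be set beside those at 1, 2 and 4 h. The deposited values themselves differed between times. Median intensity was 13.9 to 15.1 at 12 h and 22.1 to 34.9 at the earlier times. Whether the times were normalized together is not given, and the part of processing in this gap was not tested. All 12 h arrays but TCDD replicate 3 also had a lower 5′ minus 3′ signal of dap than nearly all earlier arrays. Of the 60 rises 20 were also called at 4 h and 10 at 1 or 2 h, and 40 were called at no earlier time. Of the 57 falls 4 were also called at 4 h and none at 1 or 2 h, and 53 were called at no earlier time; a call at one time alone does not show that the effects differ. The difference itself was tested as the 12 h effect minus the mean effect at 1, 2 and 4 h, which passed for 24 probe sets (0.155% of those tested), 10 higher and 14 lower at 12 h. Leaving out vehicle replicate 1 gave 12 such probe sets, leaving out vehicle replicate 2 gave 11 and leaving out vehicle replicate 3 gave 15. With the 5′ minus 3′ signal of dap as a covariate 23 passed, 16 of them among the 24. The part of array quality in these differences was not tested beyond that fit. The cyp1a effect was 1.87 at 1 h, 1.55 at 2 h, 3.78 at 4 h and 9.02 at 12 h, and exceeded the earlier mean by 6.62 (SE 0.35, limma adjusted p = 2.59e-09). The cyb5a effect was 1.90, 1.81, 2.69 and 4.89 at these times (difference 2.76, limma adjusted p = 9.64e-06). For sox9b the effect was -0.36, -0.55, -2.35 and -3.77, and the 12 h effect lay below the earlier mean by a difference of -2.69 (SE 0.23, limma adjusted p = 4.47e-06).

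Not every strong rise was larger at 12 h. The tiparp effect was 2.01 at 1 h, 2.5 at 2 h, 2.81 at 4 h and 2.69 at 12 h, and the difference from the earlier mean, 0.25 (SE 0.46), did not pass (limma adjusted p = 0.999). The cxcr4b effect was 0.03, 1.35, 2.05 and 1.67 (difference 0.52, SE 0.19, limma adjusted p = 0.612), and that of ahr2 was 0.13, 0.66, 1.22 and 1.93 (difference 1.26, SE 0.29, limma adjusted p = 0.143). Among the falls, smc4 had effects of 0.52, -0.05, -0.03 and -1.20 (difference -1.35, SE 0.17, limma adjusted p = 0.00039), and anxa2a had -0.15, -0.01, -0.53 and -1.51 (difference -1.28, SE 0.18, limma adjusted p = 0.00147).

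**Figure D4:**
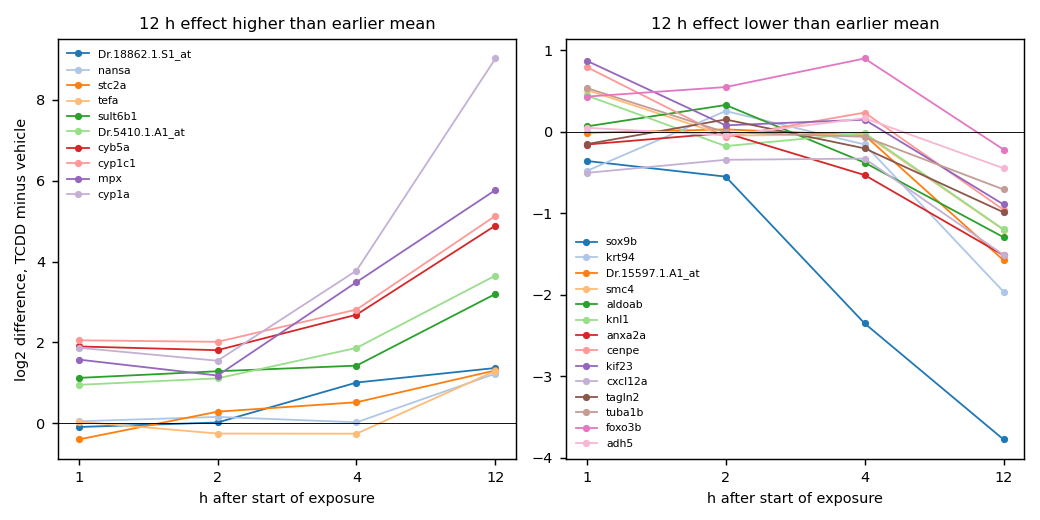
Log2 difference between TCDD and vehicle (vertical axes) at 1, 2, 4 and 12 h after the start of exposure (horizontal axes, evenly spaced and not to scale) for the 24 probe sets whose 12 h effect differed from the mean earlier effect, 10 higher at left and 14 lower at right. cyp1a reaches 9.02 and sox9b -3.77 at 12 h.

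Single arrays moved the number of calls, and leaving one out could not reverse a call, because the groups of every call were separate. Leaving out vehicle replicate 1 ended 63 calls. Without TCDD replicate 3, 30 rises and 36 falls no longer passed, and 15 other probe sets did. Of the 15 largest named rises 12 passed without it, all but ccl44, hsp90aa1.2 and si:dkey-247k7.2, and of the 15 largest named falls 11 did, all but bhmt, cebpa, foxd3 and spon2b. With that array 35.8% of all probe sets had a positive difference, and without it 48.4%. It lay nearest to the vehicle group in 16 rises and 12 falls, fewer than replicate 1 (24 and 24) or replicate 2 (20 and 21). In a fit with the 5′ minus 3′ signal of dap as a covariate 104 probe sets passed, 72 of them among the 117. The part of RNA or labelling quality in the calls was not tested beyond these fits.

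**Figure D5:**
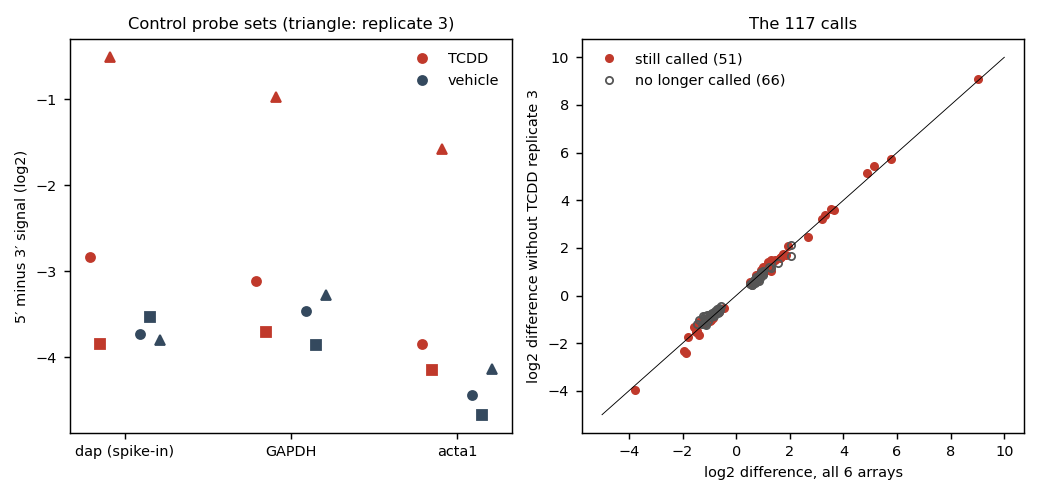
Left, 5′ minus 3′ log2 signal (vertical axis) of 3 control probe sets on each array, TCDD left of vehicle, with triangles for replicate 3; for dap TCDD replicate 3 lies at -0.51 and the 5 other arrays between -3.84 and -2.83. Right, log2 difference of the 117 calls without TCDD replicate 3 (vertical axis) against that with all 6 arrays (horizontal axis); 51 were still called and 66 were not, and all lie near the diagonal.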

How the data were processed

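Affymetrix zebrafish arrays measured RNA from pooled larval jaws in 8 groups of 3 arrays. The values are the authors' deposited intensities, and RMA and GCRMA are named without role or order per the submitters' processing notes. Levels of single genes were not compared between times, because it is not given in the sources used here whether the times were normalized together. After log2 transformation without an offset, 115 control probe sets of the 15617 were left out, and 15502 were fitted over all 24 arrays with limma 3.58.1 in R 4.3.3 (statmod 1.5.0), with 1 mean per group and Benjamini-Hochberg adjustment over all of them. A probe set was called at an adjusted p under 0.05. No depth applies to arrays, and 3 arrays per group limit the precision.

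Gene symbols come from the platform annotation, updated by Entrez ID (10718 probe sets found in the RefSeq table). Of the tested probe sets 10795 had 1 symbol, 135 several and 4572 none. Named genes were the 15 largest rises and 15 largest falls whose groups did not overlap, any call on a list, and preset AHR and cartilage genes. The comparison, lists and named genes were chosen with earlier results of these data known. Replicate numbers were not treated as pairs in the main fit, and whether a number marks one of the time courses is not given. Deviations of same-numbered 12 h arrays correlated at 0.06, -0.20 and -0.04, and those of unlike-numbered arrays at -0.19 to 0.19. With 3 arrays per group these values cannot decide it. The script was tested on simulated data. Alternatives were a replicate block, the 6 arrays alone, quantile normalization, an offset of 16, a low-signal filter, other variance moderation, array weights, the dap covariate and leaving out each array.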

Additional observations from a re-analysis of the deposited data

Results flagged for a closer look

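The effect at 12 h differed from the mean effect at 1, 2 and 4 h, by the test of the difference itself (limma, Benjamini-Hochberg adjusted p under 0.05), for 24 probe sets. Those with a larger rise at 12 h were cyp1a (difference 6.62), the probe set annotated as mpx (3.69, with 12 h vehicle values at the background, so that its exact size cannot be read), cyp1c1 (2.84), cyb5a (2.76), sult6b1 (1.92), tefa (1.45), stc2a (1.17), nansa (1.15) and 2 probe sets without a gene symbol (2.34 and 1.06). Those with a lower effect at 12 h were sox9b (-2.69), krt94 (-1.84), smc4 (-1.35), aldoab (-1.30), knl1 (-1.28), anxa2a (-1.28), cenpe (-1.28), kif23 (-1.26), cxcl12a (-1.12), tagln2 (-0.92), tuba1b (-0.86), foxo3b (-0.84), adh5 (-0.51) and a probe set without a gene symbol (-1.57). The foxo3b effect was positive at 1, 2 and 4 h (0.43, 0.55 and 0.90) and -0.22 at 12 h, where it was not called. kif23, a mitotic kinesin, had a 12 h effect of -0.89 that missed the threshold at 12 h (limma adjusted p = 0.0599).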

How the results depend on the processing

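The 117 calls kept their sign in every refit in which they were tested (114 of them with the low-signal filter). Leaving out an array could not have changed a sign, because the groups of every call did not overlap. The count of calls stayed within 1.5 times with quantile normalization of 24 arrays (160), the low-signal filter (147), trend and robust moderation (108) and the dap covariate (104). It was 19 (17 rises and 2 falls) with the 6 arrays of 12 h alone. With quantile normalization of those 6 it was 17 (13 rises and 4 falls). Both fits had fewer samples to estimate the spread, while the leave-one-out fits kept the arrays of the earlier times. The count was 65 with an offset of 16 and 802 with array weights (the cause was not tested). It was 62 when an absolute log2 change of at least 1 was also asked for, and 62 to 119 when 1 array was left out. For the 12 h effect minus the mean of the earlier effects, 24 calls became 12 with the offset, 108 with array weights and 11 to 18 when 1 array was left out (the cause was not tested). The replicate number as a fixed block gave 123 calls at 12 h and 24 for the difference between times, and as a random block 80 and 16. The random block ended the calls of both ccnd1 probe sets (limma adjusted p = 0.0674 and 0.0574), col10a1a (0.0636), hhip (0.0636) and edn1 (0.0647), which all passed with the fixed block (0.00999 to 0.0352). Over all refits of single calls, 686 ended the call and 1183 did not. On 2462 probe sets (15.9%) the signal lay under the brightest reporter on all 6 arrays, and no change can be read there.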

Other observations

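Some of the widest gaps between the groups belonged to genes that did not pass, and these were picked out after their values were seen. and2, which encodes an actinodin of the fibres that support the fin fold, read 4.29, 4.55 and 4.07 in TCDD jaws and 7.08, 7.28 and 7.84 in vehicle jaws, a difference of -3.10 (limma adjusted p = 0.703). The groups of and2 did not overlap. and1, another actinodin gene, read 2.87, 3.0 and 2.78 with TCDD and 3.42, 3.89 and 6.16 with vehicle, and did not pass. The dissected tissue was the head anterior of the pectoral fin, and the part of fin tissue in these values was not tested. sf3b6, a splicing factor gene, read 5.50, 5.07 and 8.15 with TCDD and 4.05, 4.59 and 4.09 with vehicle (2.00, limma adjusted p = 0.148), with the value of TCDD replicate 3 far above the others.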
